A study of Drosophila melanogaster with 2 samples.

Results

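Single-gene promoter peaks are the sites of Atf-2-GFP occupancy in Drosophila melanogaster embryos at which the summit, the position of highest signal within a peak, lay within 500 bp of an annotated transcription start site (TSS) of exactly 1 protein-coding gene. They were taken from the reproducible peak list, which the authors thresholded on the irreproducible discovery rate (IDR), on the dm6 build and the arms 2L, 2R, 3L, 3R, 4 and X, with all transcripts of the annotation counted. Of the 3265 IDR peaks, 979 met the rule. A further 637 lay within 500 bp of the TSSs of 2 or more genes and are called shared promoter peaks here, and 1649 lay near no TSS and are called distal peaks. The 979 peaks belonged to 884 genes. By construction each of them has the TSSs of only 1 protein-coding gene within 500 bp, unlike a summit between a close pair of divergent genes. The rule does not count noncoding genes, which started within 500 bp of 67 of the 979 summits. Some summits also lay inside other genes.

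The chromatin came from whole embryos aged 0 to 24 h, males and females pooled, of the transgenic line Atf-2-GFP, which stably expresses Atf-2 with GFP fused to its C terminus. Chromatin was sonicated to fragments of 200 to 800 bp and precipitated with an antibody against GFP, so the tagged protein was mapped and not the endogenous one. Both samples, biological replicates 2 and 3, belong to the same group, so no condition was compared with another. Data of replicate 1 and of controls were not used here. The embryos span all of embryogenesis and all tissues, so sites used by few cells and weak sites used by many cannot be told apart. Peak strength is the signal that came with each peak from the authors' peak calling. No common scale links the single replicates' lists, and no read totals were used here, so depth is unknown. The intervals given with shares are exact 95% binomial intervals (Clopper-Pearson) and those with densities exact Poisson intervals. Both cover counting error only, and neighbouring peaks are not independent.

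The ATF/CREB family, to which Atf-2 belongs, holds transcription factors with a basic leucine zipper (bZIP) that bind DNA as dimers, and Atf-2 is phosphorylated by stress-activated kinases of the p38 class. The cAMP response element (CRE) is the textbook site of the family. Promoters of many broadly expressed fly genes instead carry the DNA replication-related element (DRE), bound by DREF, or the site of the zinc-finger protein M1BP. A peak in chromatin immunoprecipitation marks DNA that was crosslinked with the tagged protein, directly or through other proteins.

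Sequences are shown for the motifs whose occurrence is described further on, to show each motif in its promoter context. Each line gives 30 bases of the dm6 sequence around a match within 100 bp of the summit, 5′ to 3′ along the strand of the gene, with the match in capitals. For each motif they come from the peaks of highest signal that do not lie on one autosomal arm, whose sequence is not shown here; some stronger peaks with a DRE, a PAR bZIP site or CACAGTGG are on that arm. The CRE, TGACGTCA, was found at the peaks of Unr, which encodes an RNA-binding protein, of CG7656, of alphaTub84B, an alpha-tubulin gene, and of how, which encodes a STAR-family RNA-binding protein. These lie at chr3L:8442412-8442441 on the minus strand, chr3L:15588241-15588270 on the minus strand, chr3R:7086867-7086896 on the plus strand and chr3R:22041889-22041918 on the plus strand.
Unr: cccatgaccacTGACGTCAcaattgtccct
CG7656: gccgagacttgTGACGTCAcacgccatctt
alphaTub84B: ctcaaaagtgaTGACGTCAtgcctgttttt
how: cagagagaaacTGACGTCAcaagatgggta

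The DRE, TATCGATA, is shown at the peaks of CG11151 (chrX:13739453-13739482, plus strand), eEF1gamma, which encodes a translation elongation factor subunit (chr3R:29220120-29220149, plus strand), RpS10b, a ribosomal protein gene (chrX:19597943-19597972, plus strand), and l(3)psg2 (chr3L:5583418-5583447, plus strand). Its 4 matches lay upstream of the nearest TSS.
CG11151: aaaccaaatgaTATCGATAcagttatttac
eEF1gamma: ggcctaggaaaTATCGATAtatcgccgtaa
RpS10b: tcttaagataaTATCGATAtattgccggcg
l(3)psg2: attcgctattaTATCGATAgaactagaagc

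The M1BP site, GGTCACACT, is shown at the peaks of deltaCOP, which encodes a coatomer subunit (chrX:1861776-1861805, minus strand), Mer, the fly Merlin (chrX:19693493-19693522, minus strand), RpL37A, a ribosomal protein gene (chr2L:5070980-5071009, plus strand), and fzr, an activator of the anaphase-promoting complex (chrX:4679842-4679871, minus strand). At 3 of them, deltaCOP, Mer and RpL37A, the centre of the match was 0, 7 and 6 bp from the TSS.
deltaCOP: gcagtggcgctGGTCACACTacccgaactc
Mer: atctaacggctGGTCACACTgtctatgttt
RpL37A: atcgagcggcGGTCACACTtttcgctcttt
fzr: ccatatagcatGGTCACACTggcatggttt

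A palindrome bound by PAR-type bZIP factors, TTACGTAA, is shown at CG13921 (chr3L:1746823-1746852, plus strand) and at X11Lbeta, which encodes an adaptor protein (chrX:10628996-10629025, plus strand). The 8-base words CACAGTGG and CAACACTG are shown as well. They had been picked in an earlier search of these same peaks, so their presence here is a description and supports nothing. CACAGTGG (or CCACTGTG, its complement) is shown at larp (chr3R:28326675-28326704, minus strand), Rtnl1 (chr2L:4997563-4997592, minus strand) and spi (chr2L:19575659-19575688, minus strand). CAACACTG is shown at CG14100 (chr3L:19590684-19590713, minus strand), the single-gene promoter peak of highest signal, and, as its complement CAGTGTTG, at the ribosomal protein gene RpL23A (chr3L:1668734-1668763, minus strand).
CG13921: ctcacaaacccTTACGTAAatttctgccag
X11Lbeta: gctaattatttTTACGTAAttattgattgt
larp: ggatctgaagcCACAGTGGgacttcttcgg
Rtnl1: tgctggcgtgcCCACTGTGcactgcttgat
spi: acgcatcgcaaCCACTGTGccgttggcatt
CG14100: gtcgcgttattCAACACTGcttgcatgggc
RpL23A: aagtgccgcagCAGTGTTGccaaacgcact

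The summits lay mainly upstream of the TSS. Of the 979 summits, 816 were upstream of the nearest TSS of their gene (83.4%, 80.9 to 85.6%), 160 were downstream and 3 were on the TSS itself. Neighbouring genes take away upstream sequence that could have met the rule: of all sequence within 500 bp of the TSSs of exactly 1 gene, called eligible sequence here, 45.2% was upstream. Per megabase of eligible sequence, 135 summits were found upstream and 21.9 downstream. The upstream share was 83.9% at genes on the plus strand and 82.9% at genes on the minus strand, and 86.4% at genes with a single annotated TSS, where the choice of the nearest TSS plays no part.

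The upstream summits were spread over the proximal promoter. The signed distance from the nearest TSS had a median of -138 bp, with quartiles of -261 and -43 bp. Density was highest from -100 to -51 bp, at 200.9 summits per Mb (168 to 238), and from -150 to -101 bp, at 194 summits per Mb (162 to 232). These neighbouring bins did not differ beyond their intervals. At -500 to -451 bp the density was 63.4 summits per Mb (43.9 to 88.6). On the other side of the TSS it fell within a short distance: 69.7 summits per Mb (51.7 to 91.9) at 1 to 50 bp, 25.3 (15.0 to 40.0) at 51 to 100 bp and 8.33 (3.06 to 18.1) between 200 and 250 bp. The interval of the first downstream bin did not overlap that of the last upstream bin, 138 summits per Mb (112 to 168).

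**Figure D1:**
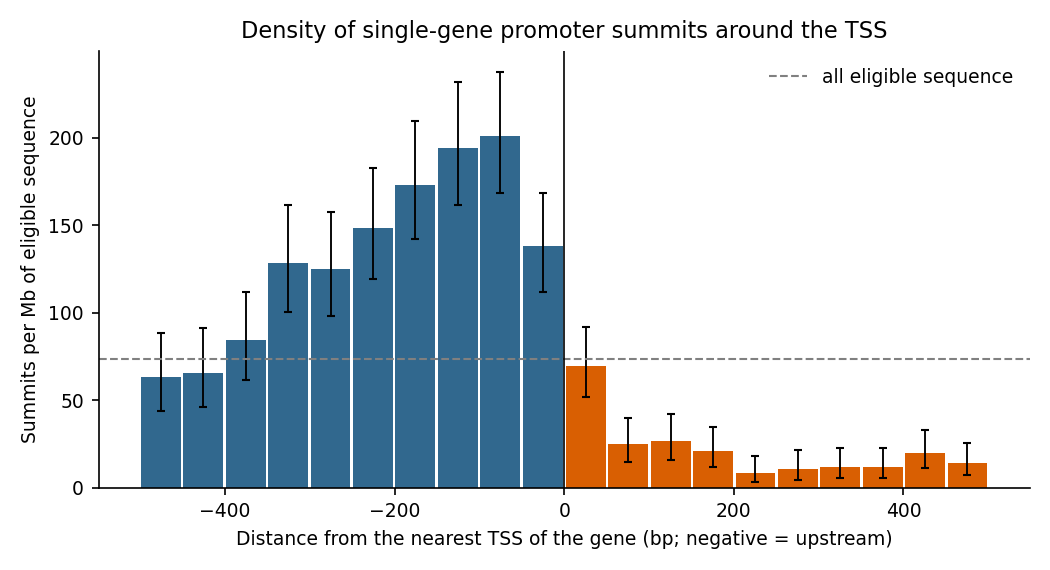
Summits of the 979 single-gene promoter peaks per Mb of eligible sequence (y axis) in bins of 50 bp by signed distance from the nearest TSS of the gene (x axis, bp); bars in blue are upstream, bars in orange downstream, black lines are exact 95% Poisson intervals and the dashed line is the density over all eligible sequence. The highest bars, 200.9 and 194 summits per Mb, are those from -150 to -51 bp, and no downstream bar beyond 50 bp exceeds 26.8.

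The position along the ranks of the peak list bore on the side. In the pooled list, from which the IDR peaks are the strongest 3265 regions, regions with a summit near a single gene were followed to lower ranks, which include background and are not calls. This look was chosen after values were seen. The upstream share was 83.4% at ranks 1 to 3265, 61.3% (58.1 to 64.5%) at ranks 3266 to 6530, 46.6% (44.0 to 49.2%) at ranks 6531 to 13060 and 42.9% (41.1 to 44.8%) at ranks 13061 to 30000. The last values were close to the 45.2% of eligible sequence. In replicate 2 the corresponding shares were 83.8, 62.8, 48.4 and 43.4%. In replicate 3 they were 76.1, 53.6, 43.0 and 39.7%, lower than in replicate 2 at each step but falling in the same order.

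Most summits fell outside exons. Intergenic sequence held 450 summits (46.0%, 42.8 to 49.1%), all of them upstream of the gene. Introns held 328 (33.5%, 30.5 to 36.6%), of which 289 were introns of the gene itself and 39 were introns of other genes only. The 5′ UTR held 151 (15.4%, 13.2 to 17.8%), noncoding exons 28, 3′ UTRs of other genes 13 and coding exons 9 (0.919%, 0.421 to 1.74%). The eligible sequence was made up differently: 22.6% was intergenic, 25.9% intron, 21.0% 5′ UTR and 25.1% coding exon. Densities were thus 149 summits per Mb in intergenic sequence, 95 in introns, 53.9 in 5′ UTRs and 2.68 in coding exons. Noncoding exons, at 143 summits per Mb, made up only 1.46% of the eligible sequence.

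A summit in a 5′ UTR was not always downstream of its TSS. Of the 151 summits in a 5′ UTR, 50 were upstream of the nearest TSS, inside the 5′ UTR of a longer transcript of the same gene. Similarly, 294 summits (30.03%, 27.2 to 33.0%) were upstream of the nearest TSS but inside the gene, at promoters within the gene body, and 522 (53.3%, 50.1 to 56.5%) were upstream of the whole gene. Shared promoter peaks had a higher share in 5′ UTRs, 22.9% (19.7 to 26.4%), and in intergenic sequence, 63.7% (59.9 to 67.5%), and a lower one in introns, 11.8% (9.37 to 14.5%). This difference is not independent of the rule, which sorts promoters by the distance to a neighbouring gene. In the pooled list the share of single-gene summits in coding exons was 0.919% at ranks 1 to 3265, 6.55% at ranks 3266 to 6530, 18.8% at ranks 6531 to 13060 and 24.97% at ranks 13061 to 30000, near the 25.1% of eligible sequence.

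The 3 strongest summits of each class gave examples. In intergenic sequence these were CG14100, Ugalt and mRpL41, and in introns px, ph-p and larp. In 5′ UTRs they were PNPase, CG1888 and GstE13. Noncoding exons of other genes held the summits of brwl, of Alg3, which encodes a mannosyltransferase of protein N-glycosylation, and of lola, a BTB zinc-finger gene, with IDR signals of 560, 386 and 309. The 3′ UTRs of other genes held those of CG17726, chas and Gorab, which encodes a Golgi and centriole protein, with 312, 249 and 201.3. In coding exons the strongest were l(2)k09913, CG44812 and Ppa, which encodes an F-box protein, with 148, 123 and 104. The classes differ in size, so their leading values are examples and not a comparison.

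The signal of single-gene promoter peaks ranged from 84.7 to 1798, with a median of 135.2 and quartiles of 101.2 and 209.0. Shared promoter peaks had a median of 135.0 and distal peaks one of 126.9, so the classes overlapped over nearly their whole ranges. Summits upstream of the TSS had a median of 139.6 (quartiles 102.3 and 217.3) and downstream ones one of 118.4 (93.9 and 171.7). By distance the highest median, 166.5, was between 200 and 300 bp upstream, while summits 1 to 50 bp upstream had a median of 118.3. By annotation the medians were 151.4 in introns, 133.8 in intergenic sequence, 121.8 in 5′ UTRs and 94.5 in coding exons. Quartile ranges overlapped between these groups, apart from that of the 9 coding-exon summits (89.7 to 103.8). It lay below those of shared promoter peaks (lower quartile 105.5) and of summits 200 to 300 bp upstream (lower quartile 105.3) and overlapped the others.

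**Figure D2:**
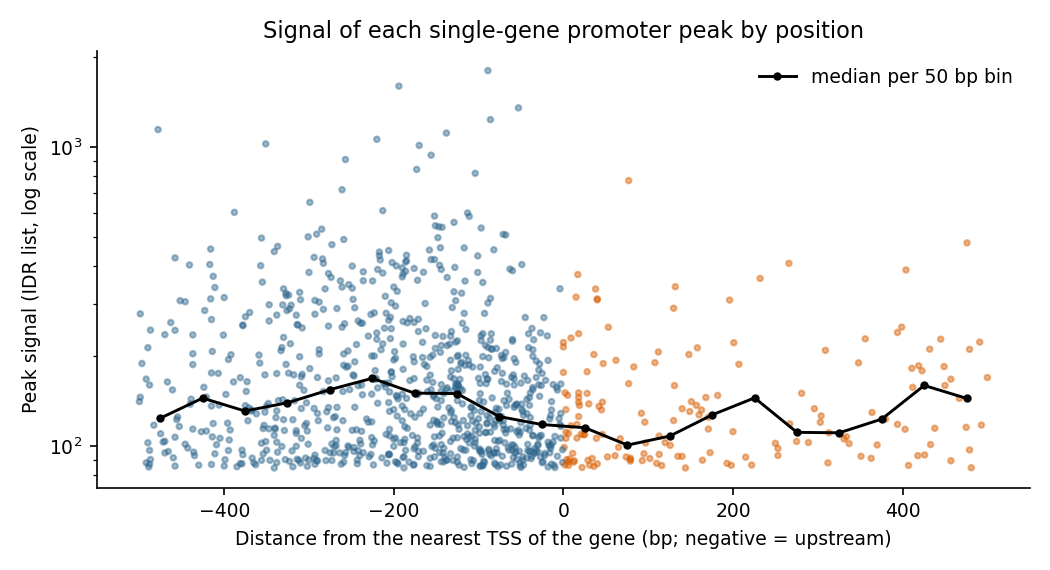
IDR-list signal of each single-gene promoter peak (y axis, log scale) by signed distance of its summit from the nearest TSS (x axis, bp), blue upstream and orange downstream, with the median of each 50 bp bin as black points joined by a line. Of the 20 strongest peaks 19 are upstream, and the medians rise from 118.3 at -50 to -1 bp to 168.8 in the bin from 250 to 200 bp upstream.

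The peak of highest signal was at CG14100 (FBgn0036889), with a summit 89 bp upstream of its single TSS in intergenic sequence (chr3L:19590404-19590829, dm6). Its signal was 1798 in the IDR list, 1246 in replicate 2 and 555.6 in replicate 3. Its rank was 3 among all IDR peaks, 2 in replicate 2 and 3 in replicate 3.

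The peak at px, which encodes the plexus protein of wing vein patterning, had signals of 1596, 1052 and 549.8 in the same order, with a summit in an intron, 194 bp upstream of an internal TSS. At Ugalt, which encodes the Golgi transporter of UDP-galactose, the signals were 1351, 911.1 and 439.7, 53 bp upstream of the outermost TSS. At PNPase, the gene of mitochondrial polynucleotide phosphorylase, an RNA-degrading enzyme, they were 1234, 830.0 and 410.9, in the 5′ UTR of a longer transcript. Each of these was higher in replicate 2 than in replicate 3, which held for nearly all single-gene peaks.

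Next came ph-p, one of the polyhomeotic pair of Polycomb group genes, with 1143 in the IDR list, 801.0 in replicate 2 and 359.8 in replicate 3. Its neighbouring paralogue ph-d is nearly identical, so the assignment of reads between them is uncertain. The mitochondrial ribosomal protein gene mRpL41 followed with 1112, 751.7 and 362.1. The order of ph-p and mRpL41 was the same in replicate 2 and inverted in replicate 3.

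The other genes among the 20 strongest had IDR signals from 1060 to 588. They were CG1888, larp (a La-related RNA-binding protein), CG31145, gish (casein kinase 1 gamma), Sox14 (an HMG-box transcription factor), Atf3 (a bZIP factor), CG18549, GstE13 (a glutathione S-transferase), Rtnl1 (the endoplasmic reticulum protein reticulon), Fhos (a formin), Drat, Msp300 (the nesprin of the nuclear envelope), Hpf1 (a cofactor of histone ADP-ribosylation) and MFS10 (a transporter). Of the 20 summits 8 were intergenic, 8 in introns and 4 in a 5′ UTR, and 6 of the 20 peaks were at genes with a single TSS. The exception to the upstream position was GstE13, at 77 bp downstream of the TSS in the 5′ UTR, with signals of 772.0, 546.1 and 227.2. All 20 overlapped one of the strongest 3265 regions in both replicates, with ranks no lower than 73 in replicate 2 and 78 in replicate 3. None of the 20 windows held a DRE.

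At the limit of 500 bp, CG5854 (500 bp downstream, signal 169.8) and Poxn (500 bp upstream, 141.2) were the members farthest from a TSS. The nearest peaks left out were at mdy and CG43066, both 503 bp upstream, with 118.2 and 90.7.

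Replicates were compared by the strongest 3265 regions of each list. Of the 979 single-gene promoter peaks, 888 (90.7%) overlapped such a region in replicate 2 and 804 (82.1%) in replicate 3. In both replicates it was 720 (73.5%, 70.7 to 76.3%), beside 74.3% (70.7 to 77.6%) of shared promoter peaks and 72.6% (70.4 to 74.7%) of distal peaks, which are within each other's intervals. The IDR peaks were chosen from these same replicates, so this is no independent check. Support fell with signal. With members ordered by signal and cut into 5 nearly equal sets, the shares from the strongest to the weakest set were 100, 99.5, 89.2, 60.2 and 18.9%. The IDR signal and the replicate ranks come from the same data, so a fall of this kind is largely built in. Statements on single weak peaks, those with an IDR signal below 96.8, thus rest mostly on the pooled signal.

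Signals in replicate 2 were larger than in replicate 3. Over the 974 peaks with a region in both lists, the median ratio of replicate 2 to replicate 3 was 1.93, with an SD of the log2 ratio of 0.50, and 29 peaks were stronger in replicate 3. Without a common scale of the replicates, this ratio is not a difference in occupancy. Across peaks, which are not independent replicates, the ranks of the replicates were related with a Spearman rho of 0.75. Atf-2's own promoter had a peak of 134.4 in the IDR list, 76.3 in replicate 2 and 56.6 in replicate 3, with the summit 108 bp upstream of the TSS in intergenic sequence.

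**Figure D3:**
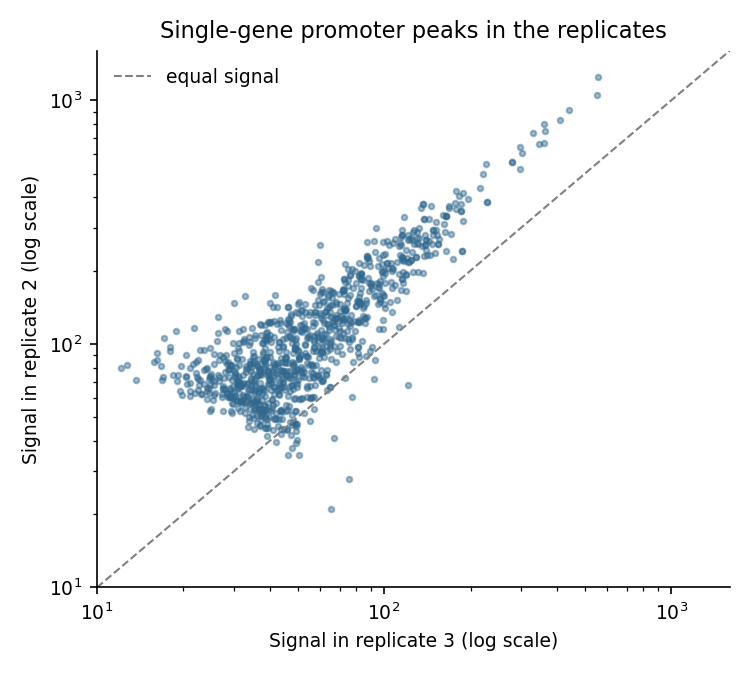
Signal of each single-gene promoter peak in replicate 2 (y axis, log scale) against replicate 3 (x axis, log scale), 1 point for each of the 974 peaks with a region in both lists; the dashed line marks equal signal. All but 29 points are above the line, and the median ratio of replicate 2 to replicate 3 is 1.93.

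Motifs were counted in windows that reached 100 bp to each side of the summit, on both strands. Beside the motifs printed with the sequences, the search covered the TATA box TATAAA, the GAGA-factor site GAGAGAG, the E-box CACGTG, the Zelda site CAGGTAG, the AP-1 site TGAGTCA and the word CACTGAGA, which came from the same earlier search of these peaks as the other 8-base words. Matches of different motifs overlapped in 2 windows, once for CACTGAGA with CAACACTG and once for CACTGAGA with the GAGA site. As a base for comparison, the same windows were taken 138 bp upstream of the outermost TSS of all 13945 protein-coding genes. A match is a description of the sequence and not a bound site.

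The CRE was rare. It occurred at 5 of 979 single-gene promoter peaks (0.511%, 0.166 to 1.19%), at 0.785% of shared promoter peaks, at 0.364% of distal peaks and in 0.316% of upstream windows of all genes, with overlapping intervals throughout. The PAR bZIP palindrome occurred at 4 peaks (0.409%, 0.111 to 1.04%), against 0.337% of upstream windows. The AP-1 site was found at 2.15% (1.33 to 3.26%), against 1.71% (1.498 to 1.94%). None of these bZIP motifs exceeded the upstream windows beyond the intervals.

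The DRE and the M1BP site set single-gene promoter peaks apart from distal peaks. With the limit of 500 bp and all TSSs, they did not set them apart from the upstream windows of all genes. Windows centred on the outermost TSS of all genes held more of both, 7.84% with a DRE and 5.29% with an M1BP site. The DRE occurred at 50 single-gene promoter peaks (5.11%, 3.81 to 6.68%), at 0.303% of distal peaks (0.0985 to 0.706%) and at 10.5% of shared promoter peaks (8.24 to 13.2%). In upstream windows of all genes it was present in 4.62% (4.28 to 4.98%), within the interval of the single-gene peaks. This depended on the promoter rule. With 250 bp the DRE share at single-gene peaks was 8.07% and with only the outermost TSS 7.05%, above that of upstream windows. With 1000 bp it was 3.47%, below that of upstream windows. The M1BP site was found at 2.15% of single-gene promoter peaks (1.33 to 3.26%), 0.243% of distal peaks and 2.83% of shared promoter peaks (1.68 to 4.43%). In upstream windows it was found in 1.74%. Unlike for the DRE, the intervals of single-gene and shared promoter peaks overlap for the M1BP site. Matches of the DRE lay at a median of -47 bp from the TSS and those of the M1BP site at -34 bp. In members with signals above the median the DRE was found in 3.89% (2.36 to 6.00%) and the M1BP site in 1.02% (0.333 to 2.37%), against 6.33% (4.34 to 8.86%) and 3.27% (1.88 to 5.25%) in those below it. These intervals overlap.

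The GAGA site occurred at 66 single-gene promoter peaks (6.74%, 5.25 to 8.50%), at 0.785% of shared promoter peaks (0.255 to 1.82%) and at 3.21% of distal peaks (2.42 to 4.18%). In upstream windows it was found in 4.85% (4.504 to 5.22%), just below the interval of the single-gene peaks. This order depended on the promoter distance: with 250 bp the share at single-gene peaks was 4.43%, below that of upstream windows, and with only the outermost TSS it was 5.67%. The TATA box was found at 28.2% (25.4 to 31.1%) of single-gene peaks and in 34.3% of upstream windows. It was at 31.1% of distal peaks (28.9 to 33.4%) and 37.8% of shared promoter peaks (34.1 to 41.7%), so it did not follow the order of the DRE. Base composition differed little, with a mean GC content of 38.2 ± 7.11% (SD, n = 979 windows) at single-gene peaks and 37.4 ± 9.24% (SD, n = 13945 windows) upstream of all genes.

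The 8-base words divided the classes differently. CACAGTGG occurred at 61 single-gene promoter peaks (6.23%, 4.80 to 7.93%) and at 5.46% of distal peaks (4.41 to 6.67%), but at 2.20% of shared promoter peaks (1.21 to 3.66%) and in 0.968% of upstream windows. CACTGAGA was found at 2.55% of single-gene promoter peaks (1.66 to 3.75%), 6.55% of distal peaks (5.40 to 7.85%) and 0.157% of shared promoter peaks. CAACACTG showed the opposite order, with 8.01% of shared promoter peaks (6.02 to 10.4%), 4.29% of single-gene promoter peaks (3.11 to 5.75%) and 0.910% of distal peaks (0.510 to 1.496%). The single-gene peaks were thus between the other classes for the DRE, CACTGAGA and CAACACTG. Matches of CAACACTG lay at a median of -25 bp from the TSS and those of CACAGTGG at -123.5 bp.

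**Figure D4:**
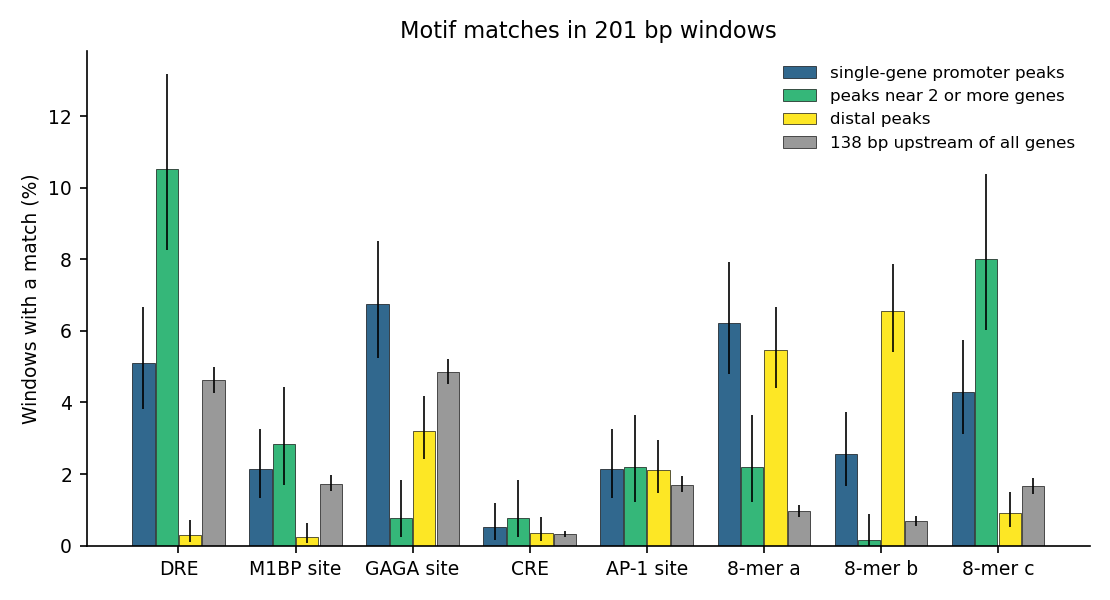
Share of windows (100 bp to each side of a summit or position) with a match (y axis, percent) for 8 of the 12 motifs (x axis) at single-gene promoter peaks (blue), shared promoter peaks near 2 or more genes (green), distal peaks (yellow) and 138 bp upstream of the outermost TSS of all genes (grey), with exact 95% binomial intervals; the 8-mers a, b and c are the words with 61, 25 and 42 single-gene peaks in the text. The DRE is at 5.11% of single-gene promoter peaks, 10.5% of shared and 0.303% of distal ones.

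At the level of genes, 13470 of 13945 protein-coding genes on the 6 arms had eligible sequence, and 884 of them, 6.56%, had a single-gene promoter peak. Gene lists by function are read against this share; the lists were chosen with results of these data known. The lists were not matched for the number of annotated TSSs, with which the share rose from 3.70% at 1 TSS to 33.0% at 4 or more. The counts below are of eligible genes only.

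Ribosomal protein genes of the cytosolic ribosome had a peak of their own in 27 of 90 cases (30%, 20.8 to 40.6%). The strongest was at RpL23A, with signals of 352.8 in the IDR list, 265.2 in replicate 2 and 92.3 in replicate 3. RpS10b followed with 239.4, 161.5 and 82.4, and RpS28b with 237.7, 158.5 and 75.8. All 3 were intergenic, at 95, 27 and 41 bp upstream of the TSS. Peaks shared with a neighbour included, 58 of 93 genes of the list (62.4%) had a promoter peak, beside 14.9% of all genes.

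The summits at ribosomal protein genes were close to the TSS. Their median absolute distance was 19 bp, against 172.5 bp for the other 952 single-gene promoter peaks. Within 100 bp of the TSS were 26 of the 27 (96.3%, 81.0 to 99.9%), against 277 of 952 (29.1%, 26.2 to 32.1%). In the 5′ UTR were 10 of 27 (37.0%, 19.4 to 57.6%), against 14.8% (12.6 to 17.2%). The DRE was present in 10 of 27 windows (37.0%, 19.4 to 57.6%), against 40 of the others (4.20%, 3.02 to 5.68%). The signals of the 27 peaks at ribosomal protein genes were ordinary, from 86.5 to 352.8 with a median of 154.2, against 134.9 for the others. This closeness was looked for after the values had been seen.

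Translation factor genes had a peak in 9 of 50 cases (18.0%, 8.58 to 31.4%), but the interval included the background with a promoter distance of 1000 bp (10.6%, 3.55 to 23.1%, background 7.41%) and in the stronger 1632 IDR peaks (10%, 3.33 to 21.8%, background 3.54%). The strongest were at eEF1gamma (335.9 in the IDR list, 220.7 in replicate 2, 115.01 in replicate 3), with a summit 4 bp upstream of the TSS, at eIF6, a factor that keeps ribosomal subunits apart (278.2, 217.2 and 59.0), and at eIF3c, an initiation factor subunit (237.8, 156.2 and 81.6). Other lists of broadly expressed genes did not exceed the background. Mitochondrial ribosomal protein genes had 2 of 68 (2.94%, 0.358 to 10.2%), mRpL41 and mRpL4. Of the 48 proteasome subunit genes 1 had a peak (2.08%), Rpn11, the deubiquitinating subunit of the lid. Of the 86 genes of the respiratory chain and ATP synthase 1 had a peak (1.16%, 0.0294 to 6.31%), ND-B17, a subunit of complex I. With a distance of 250 bp (4.55%, 1.25 to 11.2%) or only the outermost TSS (4.65%, 1.28 to 11.5%) that list's interval included the background, as it did in the stronger 1632 IDR peaks (0%, upper bound 4.20%, background 3.54%). Of the 33 V-ATPase genes 2 had one (6.06%), Vha68-2 and Vha16-1. No single-gene peak was found at 33 aminoacyl-tRNA synthetase genes (upper bound 10.6%) or 8 chaperonin CCT genes (upper bound 36.9%). Peaks shared with neighbours change this picture. Counting them, 20 of 73 mitochondrial ribosomal protein genes (27.4%) had a promoter peak, beside 14.9% of all genes. By the same count it was 15 of 89 genes of the respiratory chain and ATP synthase (16.9%), 9 of 33 V-ATPase genes, 6 of 48 proteasome genes, 6 of 35 synthetase genes (17.1%) and 2 of 8 CCT genes. A low single-gene share in these lists does not mean that their promoters had no peak.

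Of 20 bZIP genes 7 had a single-gene promoter peak (35%, 15.4 to 59.2%). Among all eligible genes with 4 or more TSSs the share was 33.0% (28.6 to 37.6%), and TSS number was not matched here. Atf3 had a peak of 841.2 in the IDR list, 560.2 in replicate 2 and 280.0 in replicate 3, 173 bp upstream of the TSS, and a second summit of 149.1 at 398 bp upstream that overlapped the same regions in the replicates. REPTOR, a factor repressed by TORC1 signalling, had a peak of 366.4, 263.5 and 102.7 in an intron. CrebA (146.1), Atf-2 (134.4), cnc (126.4), the fly Nrf2, Xbp1 (126.2), a factor of the unfolded protein response, and vri (117.8), a circadian repressor, were near the median of all single-gene peaks. The peak at cnc was the only downstream one of the 8 at bZIP genes. In the p38 and JNK pathways 1 of 19 genes had a peak (5.26%, 0.133 to 26.0%), near the background of 6.56%. It was at Tak1, a kinase kinase kinase, with 162.2, 106.0 and 53.9. With shared promoter peaks counted, 3 of 19 genes of these pathways (15.8%) had a promoter peak, beside 14.9% of all genes. By that count it was 8 of 20 bZIP genes (40%).

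Of 19 Polycomb group genes 4 had a peak (21.1%, 6.05 to 45.6%): ph-p, Psc, jing and pho. At ph-p a second summit of 250.2 lay 399 bp downstream of a TSS in the 5′ UTR. Psc had 126.8, 77.5 and 48.5 at 15 bp upstream. Of 21 nuclear receptor genes 3 had a peak (14.3%, 3.05 to 36.3%), the ecdysone-induced gene Eip75B with 335.5, ERR with 173.3 and Hnf4 with 131.4. The lower bounds of both lists are under the background of 6.56%. For the Polycomb group the interval was above the background at 1000 bp (26.3%, 9.15 to 51.2%, background 7.41%) and without replicate 2 (31.6%, 12.6 to 56.6%, background 6.76%). It included the background in the other alternatives. With shared promoter peaks counted, 9 of 19 Polycomb group genes (47.4%) and 5 of 21 nuclear receptor genes (23.8%) had a promoter peak, beside 14.9% of all genes. Of 41 homeobox genes 2 had a peak (4.88%, 0.596 to 16.5%), the anterior determinant bcd with 229.0, 167.5 and 61.0 and H2.0 with 102.5, 59.6 and 36.0. No peak was found at 176 chemosensory receptor genes (upper bound 2.07%) or 116 cuticle protein genes (upper bound 3.13%), families that encode receptors of sensory neurons and proteins of the cuticle.

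**Figure D5:**
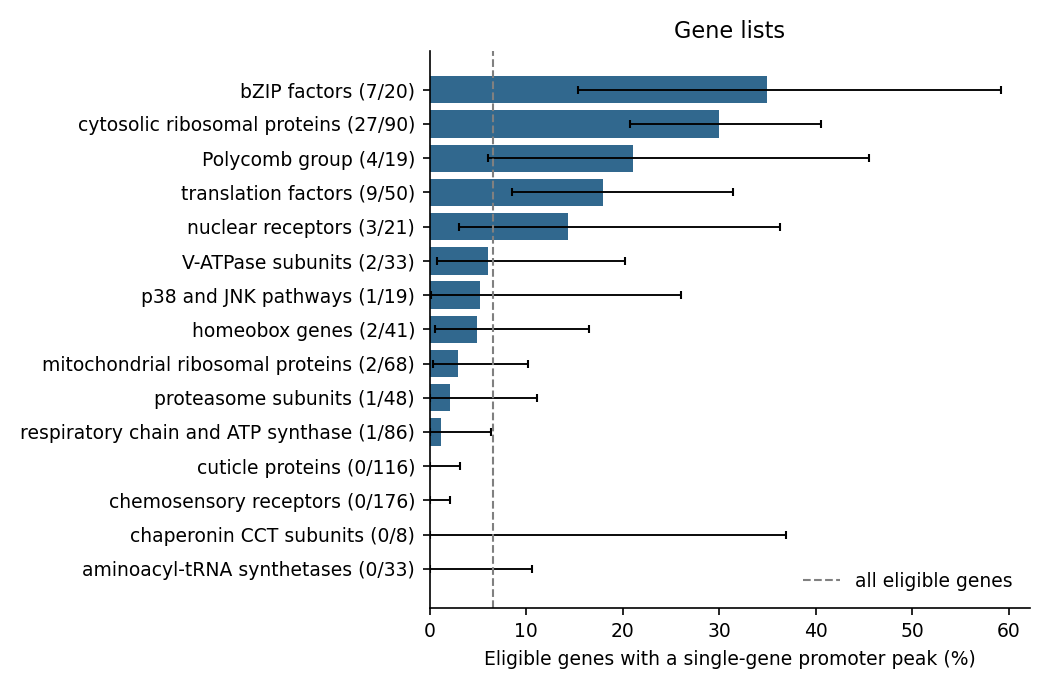
Share of eligible genes with a single-gene promoter peak (x axis, percent) for 15 gene lists (y axis, with the number of genes with a peak over the number eligible), with exact 95% binomial intervals; the dashed line is the share of all eligible genes, 6.56%. The intervals of bZIP factors, cytosolic ribosomal proteins and translation factors lie above the line, those of cuticle proteins, chemosensory receptors and the respiratory chain below it; for translation factors and the respiratory chain this did not hold under every alternative.

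Genes with several annotated TSSs were frequent among those with a peak. Each distinct start position counts as a TSS here, so starts a few bp apart count separately. Of the 884 genes with a single-gene promoter peak, 519 (58.7%, 55.4 to 62.0%) had 2 or more annotated TSSs, against 24.5% (23.8 to 25.3%) of the 12586 eligible genes without one. More TSSs bring more eligible sequence, so densities were compared as well. They were 50.1 summits per Mb (45.2 to 55.4) at genes with 1 TSS, 98.1 (88.8 to 108) at genes with 2 or 3 and 121 (104 to 140) at genes with 4 or more. The share of genes with a peak was 3.70, 11.8 and 33.0% in the same order. Genes with a peak were also longer, with a median of 5895 bp against 2049.5 bp. At genes with several TSSs, 296 of 597 summits (49.6%, 45.5 to 53.7%) were within 500 bp of the outermost one, and the rest were at internal promoters.

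Most genes had a single peak: 804 had 1, 71 had 2, 5 had 3, 2 had 4 and 2 had 5. Part of this multiplicity came from neighbouring summits, since 82 peaks at 41 genes shared their region in replicate 2 with another peak of the same gene. The 9 genes with 3 or more had 33 peaks, of which 30 were upstream of the nearest TSS, 25 in introns and 5 within 500 bp of the outermost TSS.

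Rtnl1, with 7 TSSs, had 5 peaks. Their IDR signals were 719.5, 309.7, 163.5, 99.9 and 90.0, each upstream of a TSS, at 261, 248, 154, 332 and 48 bp. Ptpmeg2, which encodes a protein tyrosine phosphatase, had 5 peaks at 6 TSSs, with IDR signals of 434.9, 400.7, 278.4, 159.6 and 99.2. The first 3, 185 to 209 bp upstream of internal TSSs, were the strong ones, and the peak nearest to the outermost TSS, 131 bp downstream of it, had 159.6. In both genes the strongest peak was at an internal promoter.

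The gene dnc, which encodes a cAMP phosphodiesterase, had 4 peaks of 531.4, 401.2, 173.0 and 113.0 at 9 TSSs, all at least 79271 bp inside the outermost TSS. The second and the third were 200 bp apart and overlapped 1 region in each replicate. RapGAP1, the gene of a GTPase-activating protein of Rap1, had 4 of 269.7, 184.1, 157.5 and 105.6, of which the first and the third shared a region likewise. At spi, which encodes the EGF receptor ligand Spitz, the peaks of 497.8 and 297.0 shared a region and the last had 114.3. The other genes with 3 were larp (1024, 160.8 and 118.6), brwl (559.7, 169.3 and 102.7), Pgk, which encodes phosphoglycerate kinase of glycolysis (160.2, 143.2 and 88.1), and Moe, which encodes moesin (123.8, 115.3 and 93.2). At larp the strongest peak was at an internal promoter, while at brwl and Moe the strongest summit was the one at the outermost TSS.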

How the data were processed

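Peaks were used as deposited on dm6: the IDR list, the list of the pooled replicates and a list for each replicate, the latter 3 of 30000 regions including background. Their signal values are those the authors' peak caller wrote before the files were deposited; the sources used here do not give aligner, peak caller, versions or IDR threshold. Lists on dm3 were not used.

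In Python 3.11.15 (numpy 2.4.6, scipy 1.17.1, pandas 2.3.3, matplotlib 3.10.9), summits were compared with all TSSs of protein-coding genes of the Ensembl release 115 annotation on the Release 6 sequence. Annotation was assigned by a fixed order of precedence, from 5′ UTR and coding exon over 3′ UTR and noncoding exon to intron and intergenic sequence. Peaks matched replicate regions by 1 bp of overlap, taking the region of highest signal, which 2 neighbouring summits can share. Coordinates are counted from 1. No test was run: counts, medians and exact intervals are given beside the background. The functions were tested on simulated data. Depth is unknown.

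The peaks, gene lists and motifs were chosen with earlier results of these data known. Named genes are those of the 20 strongest peaks, the 3 strongest of each annotation class and list, those with 3 or more peaks, the strongest outside arm 2R with a printed motif, and those next to the 500 bp limit; Atf-2 and the rest of the bZIP and Polycomb genes were added after values were seen. Alternatives were other promoter distances, TSS sets, motif windows and overlaps, the stronger 1632 peaks, interval middles, noncoding neighbours and each replicate alone.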

Additional observations from a re-analysis of the deposited data

How the results depend on the processing

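The upstream share of summits stayed above that of eligible sequence in all 8 alternatives to the peak list or the promoter rule. Placing peaks by the interval's middle moved none of the main values beyond counting error. In 74.0% of the peaks the summit already was the middle, so this alternative changed little of the input. Promoter distances changed which genes were counted: 638 of the 884 genes were shared at 250 bp and 760 at 1000 bp. The cause of the shifts below was not tested, apart from what the rules themselves change (sequence or peaks counted).

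With 250 bp, 27.0% of peaks were single-gene promoter peaks, the median distance was -89 bp, 20.8% of summits were in a 5′ UTR, 8.07% had a DRE, 4.77% CACAGTGG, 44.0% of ribosomal protein genes had a peak and 25 genes had 2 or more. With 1000 bp the values were 34.5% of peaks, 7.41% of eligible genes, 76.6% upstream, -156 bp, 12.4% in a 5′ UTR, 3.47% with a DRE, 20% of ribosomal protein genes and 144 genes with 2 or more. With only the outermost TSS they were 22.1% of peaks, 5.18% of eligible genes, 77.9% upstream, -109 bp, 7.05% with a DRE, 4.56% with CACAGTGG and 29 genes with 2 or more.

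In all 8 alternatives to the peak list or the rule, the intervals of cytosolic ribosomal protein and bZIP genes stayed above the background and those of chemosensory receptor and cuticle protein genes below it. None of these alternatives matched genes by their number of TSSs. The stronger 1632 IDR peaks gave 513 members, 3.54% of eligible genes, 86.4% upstream, -157 bp, 18.9% of ribosomal protein genes and 31 genes with 2 or more. With noncoding neighbours counted, 27.9% of peaks were members. Motif windows of 50 bp each side gave 2.55% with a DRE and 2.76% with CACAGTGG; those of 250 bp gave 1.23% with a CRE, 8.27% with a DRE and 10.3% with CACAGTGG. Support in both replicates was 94.9% with 2 times as many regions and 58.2% with an overlap of 50% in both directions.

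Without replicate 2 or without replicate 3, the upstream share ranged from 76.1 to 83.8%, the median distance from -136 to -122.5 bp, the 5′ UTR share from 14.4 to 20.3%, the ratio of median signal to that of distal peaks from 1.02 to 1.08 and the CACAGTGG share from 4.79 to 7.08%, replicate 3 alone giving the lower upstream share. Comparison of motif shares with windows 138 bp upstream of the outermost TSS was chosen after seeing the data. Windows centred on the TSS itself held a DRE in 7.84% and an M1BP site in 5.29%, above the shares at the 979 single-gene peaks. Depth is unknown, and weak peaks rest on few shared replicate regions.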

Other observations

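Single-gene promoter peaks were spread over all arms. The share of eligible genes with one was 5.74% (4.87 to 6.70%) on 2L, 6.48% on 2R, 6.81% on 3L, 6.28% on 3R and 7.70% (6.60 to 8.91%) on X. On the small chromosome 4 it was 7 of 80 genes (8.75%, 3.59 to 17.2%), with a median signal of 100.4 over 8 peaks, against 150.8 over the 189 peaks of X.

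Noncoding genes started within 500 bp of 67 of the 979 summits (6.84%, 5.34 to 8.61%). These were mostly genes annotated as ncRNA, at 52 summits. Genes for tRNAs were near 7, those for snoRNAs near 5 and one for the U5 snRNA near the peak of ND-B17. The strongest of those next to a tRNA gene was at CG8036, with a signal of 399.96 and the summit 249 bp upstream of the TSS. All 5 summits next to a snoRNA gene belonged to ribosomal protein genes (RpS12, RpL17, RpL36A, RpS29 and RpL10Ab). These 5 summits were 3 to 16 bp from the TSS of the ribosomal protein gene. Whether any peak near a noncoding gene belongs to that gene was not tested.

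The nearest TSS of any other protein-coding gene was at a median of 2882 bp from the summit, and at 138 summits (14.1%) it was within 1000 bp. The summit was in the middle of the deposited interval, whose median width was 436 bp, in 74.0% of the peaks.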
